A study of Mus musculus with 34 samples.

Results

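The comparison set 6 libraries titled Tfh5_4e4 against 5 titled Tfh2_2e4, 11 of the 34 libraries of the series, and the members were chosen by the group name in the library title. All 34 came from C57BL/6 mouse naive CD4 T cells, which were stimulated in culture for 3.5 days on plates coated with anti-CD3 and anti-CD28 before flow sorting. Tfh5_4e4 carries culture code 5 with the number 4e4, and Tfh2_2e4 carries code 2 with the number 2e4. What the codes and numbers stand for, and how cells were gated, is not stated in the labels, so both serve here as names. Code and number both differ between Tfh5_4e4 and Tfh2_2e4, and their parts in a difference cannot be told apart from this comparison alone. The code Tfh2 was also present with the numbers 1e4, 4e4 and 6e4 (6 libraries each), and these groups give the scale on which Tfh5_4e4 was placed. The labels do not say whether replicates are separate cultures or animals, and the p-values reflect only how far these libraries spread, which may be technical. In bulk RNA of this kind, fewer cells of a type and less RNA per cell cannot be told apart. A sixth group, TfhA_4e4 (5 libraries), entered the fit, where it bore on the filter, the scaling and the estimate of the spread, and is not compared here. Replicates are numbered 1 to 6, Tfh2_2e4 replicate 3 was not analysed here, and values per library follow the order of these numbers.

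The series title names TGF-beta, a cytokine whose receptors phosphorylate SMAD proteins, which then enter the nucleus and switch on target genes. Several of those targets, such as Smad7, Pmepa1 and Skil, encode inhibitors of the same pathway, so they serve as a feedback readout of it. In activated T cells TGF-beta also bears on the choice between the TH17, regulatory and follicular helper (TFH) fates. Cell-cycle genes are switched on in waves, DNA replication genes by E2F factors at the G1/S transition and mitotic genes later through CHR and CCAAT elements in their promoters. Low oxygen stabilises HIF-1, which binds a short core sequence near genes of glycolysis and of the hypoxia response.

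Libraries held 6181166 to 9543117 counts in Tfh5_4e4 and 5453857 to 9003008 in Tfh2_2e4. A pair of identifiers without a symbol took 46.4% to 52.1% of the counts in Tfh5_4e4 and 40.6% to 50.4% in Tfh2_2e4. Of the remaining counts, mitochondrial rRNA took 9.81% ± 1.24 (SD, n = 6) in Tfh5_4e4 and 9.38% ± 0.685 (n = 5) in Tfh2_2e4. The 8 T cell markers summed to 2140 to 2393 CPM (each library scaled by its TMM-normalized total) in Tfh5_4e4 and 1916 to 2197 CPM in Tfh2_2e4. Markers of B cells (7 genes) summed to 0.732 to 2.48 CPM in Tfh5_4e4 and 0.275 to 3.98 CPM in Tfh2_2e4, with Ms4a1 and Cd22 at 0 counts in both groups and only Ebf1 past the filter on low counts. The 9 myeloid markers summed to at most 0.636 CPM in Tfh5_4e4 and 0.649 CPM in Tfh2_2e4, with Csf3r, S100a8 and S100a9 at 0 counts in both. Dendritic cell markers (6 genes) summed to 3.18 to 5.94 CPM in Tfh5_4e4 and 3.34 to 9.61 CPM in Tfh2_2e4, almost all of it from Xcr1, while Flt3, Clec9a and Siglech were at 0 counts in both. CD8 T cell markers (4 genes) summed to 6.64 to 14 CPM in Tfh5_4e4 and 4.10 to 10.02 CPM in Tfh2_2e4, mainly from Cd8b1. Natural killer markers (5 genes) and erythroid markers (5 of 6 listed, as Hbb-bt had no identifier) summed to at most 1.83 and 1.40 CPM in Tfh5_4e4. In Tfh2_2e4 they summed to at most 1.95 and 0.703 CPM. Ncr1, Klrb1c and the other haemoglobin genes were at 0 counts in both groups. Tfh2_2e4 replicate 6 stood apart from the other libraries of its group. Gzmb, the cytotoxic granule protease, had 0.137, 0.769, 0.281, 0 and 15.8 CPM in the 5 Tfh2_2e4 libraries, and Tbx21, the TH1 factor T-bet, had 0.412, 0.640, 0.844, 0.189 and 4.45 CPM. List counts that change without that library are therefore given with and without it.

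Of 11357 genes that passed the filter on low counts, 1247 (11%) differed between Tfh5_4e4 and Tfh2_2e4 at an adjusted p below 0.05 in edgeR's quasi-likelihood test. Of these, 658 (5.79%) were higher and 589 (5.19%) lower in Tfh5_4e4, and 132 (1.16%) were over 2-fold higher and 180 (1.58%) over 2-fold lower. Without Tfh2_2e4 replicate 6 the counts were 470 higher and 511 lower. Without Tfh2_2e4 replicate 1 they were 412 higher and 519 lower. In 390 genes (3.43%) all 6 Tfh5_4e4 libraries lay above all 5 Tfh2_2e4 libraries, and in 383 genes (3.37%) all 6 lay below.

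The number 2e4 was not the Tfh2 number nearest to Tfh5_4e4 by these counts. Set against Tfh2_4e4, 353 genes differed (3.11%, with 1.41% higher and 1.70% lower in Tfh5_4e4). In Tfh2_4e4 replicate 3, Gzmb had 5.16 CPM and Tbx21 4.22 CPM, against at most 1.32 and 0.966 CPM in the other Tfh2_4e4 libraries. Without that library and Tfh2_2e4 replicate 6, a setting chosen after seeing the data, 264 genes differed (121 higher and 143 lower). Set against Tfh2_6e4, 1204 differed (10.6%, with 5.09% higher and 5.51% lower), and against Tfh2_1e4, 3228 (28.4%, with 16.3% higher and 12.1% lower). The median absolute log2 fold change over all genes tested was 0.34 against Tfh2_1e4, 0.25 against Tfh2_2e4, 0.19 against Tfh2_4e4 and 0.23 against Tfh2_6e4. These 4 comparisons share the Tfh5_4e4 libraries, and their values are set side by side only. The median signed log2 fold change over all genes was between -0.01 and 0.03 in all 4, so list medians below are read against about 0. List counts below are read against the shares over all genes in the same comparison.

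Against Tfh2_2e4, 27 of 30 mitosis genes and 24 of 28 DNA replication genes tested fell in Tfh5_4e4. Of the hypoxia genes 10 of 27 rose, and of the glycolysis genes 6 of 20. Of 22 SMAD feedback and target genes tested 4 rose and 3 fell, and 16 had a positive log2 fold change. Smad7, Ldlrad4 and Spsb1 were among the rises, and Id1, Id2 and Id3 fell. Pmepa1, Skil and Sox4 did not pass, and whether they differ from the genes that rose was not tested. The 4 genes Pmepa1, Smad7, Slc2a3 and Plk1 show these patterns in single libraries.

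Pmepa1, which encodes a membrane protein that sequesters receptor-activated SMADs (chr2:173224458-173276731, GRCm38.p6), had 494, 495, 507, 437, 447 and 525 CPM in the Tfh5_4e4 libraries. In the Tfh2_2e4 libraries it had 464, 459, 398, 352 and 374 CPM. Of the Tfh5_4e4 libraries 2 lay within the Tfh2_2e4 range and the other 4 above it, and the log2 fold change of 0.24 (95% interval 0.06 to 0.42, edgeR adjusted p = 0.073) did not pass. It passed in 5 of 22 alternative settings, among them limma-voom (0.24, adjusted p = 0.031) and leaving out Tfh2_2e4 replicate 2 (0.29, adjusted p = 0.047). In brackets after a gene stand its log2 fold change and then, where given, the SE or 95% interval and the adjusted p. Within the Tfh2 line Pmepa1 averaged 648 ± 28.8 CPM (SD, n = 6) at 1e4, 409 ± 50.3 CPM (n = 5) at 2e4, 272 ± 24.1 CPM (n = 6) at 4e4 and 193 ± 21.2 CPM (n = 6) at 6e4. The Tfh5_4e4 mean of 484 ± 34.6 CPM (n = 6) thus lay between the Tfh2 means at 1e4 and 2e4, and Pmepa1 was 0.83 higher on the log2 scale than in Tfh2_4e4 (edgeR adjusted p = 1.7e-08).

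Smad7, the inhibitory SMAD that blocks and degrades the TGF-beta receptor (chr18:75367365-75395935), had 60.5, 58.5, 70.0, 73.0, 65.9 and 64.0 CPM in Tfh5_4e4 libraries and 38.2, 40.2, 42.2, 39.7 and 36.5 CPM in Tfh2_2e4 libraries. The groups did not overlap, and Smad7 was 1.66-fold higher (log2 fold change 0.73, SE 0.15, edgeR adjusted p = 0.00053). Its mean in Tfh5_4e4 also exceeded that of Tfh2_4e4 and Tfh2_6e4 (log2 fold changes 0.88 and 0.88, edgeR adjusted p = 6.8e-05 and 1.3e-05). Against Tfh2_1e4 the difference of 0.24 (95% interval -0.04 to 0.52) did not pass.

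Slc2a3, the glucose transporter GLUT3 (chr6:122727809-122802363), had 146, 162, 159, 158, 140.2 and 112 CPM in Tfh5_4e4 libraries and 36.7, 65.2, 64.4, 90.8 and 56.5 CPM in Tfh2_2e4 libraries. All Tfh5_4e4 values were higher, and the log2 fold change was 1.23 (SE 0.15, edgeR adjusted p = 4.3e-08). Slc2a3 rose along the Tfh2 numbers, with means of 10.8 ± 1.69, 62.7 ± 19.4, 269.9 ± 55.6 and 416 ± 28.9 CPM at 1e4, 2e4, 4e4 and 6e4. The Tfh5_4e4 mean of 146 ± 18.5 CPM stood between those at 2e4 and 4e4, and it passed as lower than at 4e4 (log2 fold change -0.88, edgeR adjusted p = 3.3e-05).

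Plk1, the kinase that drives mitotic entry and spindle assembly (chr7:122159435-122169884), had 24.9, 30.9, 34.3, 30.1, 32.7 and 29.4 CPM in Tfh5_4e4 libraries and 57.2, 56.4, 53.7, 37.2 and 73.7 CPM in Tfh2_2e4 libraries. Every Tfh5_4e4 value was lower than every Tfh2_2e4 value (log2 fold change -0.88, SE 0.17, edgeR adjusted p = 0.00019). Against Tfh2_4e4 and Tfh2_6e4, Plk1 had log2 fold changes of -0.25 (95% interval -0.57 to 0.08) and 0.14 (-0.19 to 0.46), which did not pass.

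**Figure D1:**
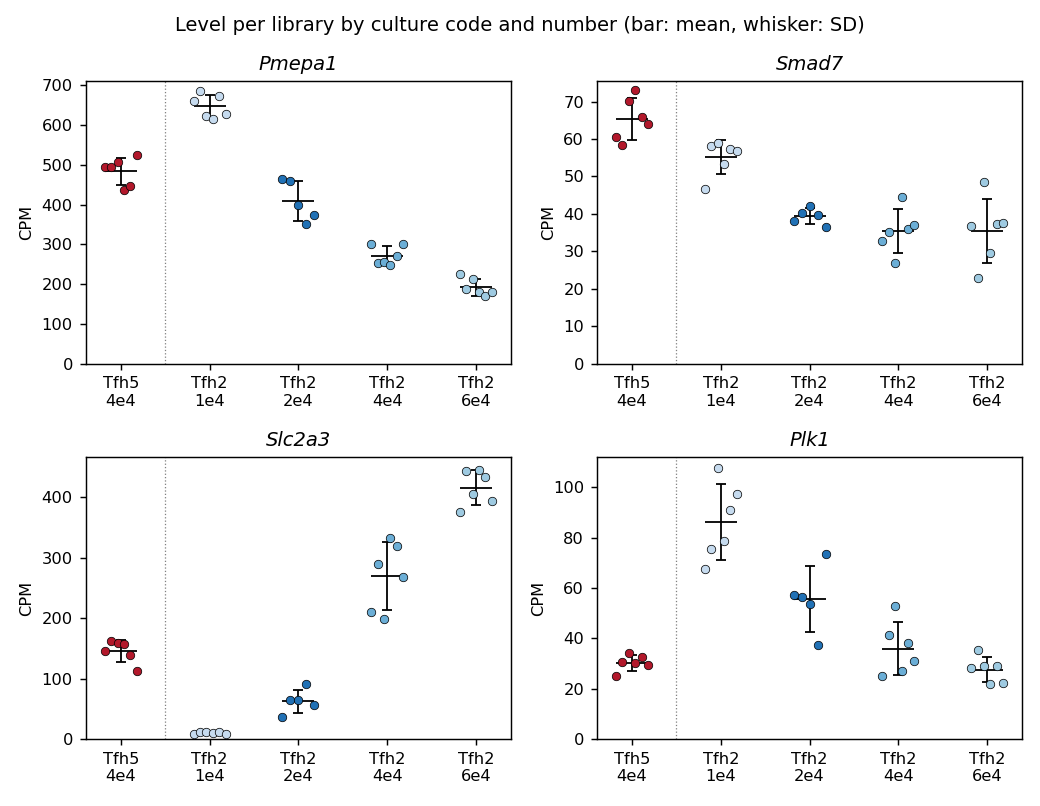
Level in CPM of Pmepa1, Smad7, Slc2a3 and Plk1 in each library (points), with group means and SD, for Tfh5_4e4 and the 4 Tfh2 numbers. Smad7 in Tfh5_4e4 (58.5 to 73.0 CPM) lies above every Tfh2_2e4 library (36.5 to 42.2 CPM), whereas Pmepa1 overlaps with Tfh2_2e4.

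Of the 27 SMAD feedback and target genes listed, 22 passed the filter on low counts, 4 rose and 3 fell (4 and 2 without Tfh2_2e4 replicate 6). Their median log2 fold change was 0.22, against 0.02 over all genes tested. Ldlrad4, which interferes with the access of SMADs to the receptor, had 73.9, 78.1, 63.8, 67.6, 59.5 and 91.4 CPM in Tfh5_4e4 libraries and 43.7, 45.9, 37.7, 38 and 33.7 CPM in Tfh2_2e4 libraries. The groups stood apart, with a log2 fold change of 0.86 (SE 0.15, edgeR adjusted p = 4.5e-05). Spsb1, an adaptor that marks the type II receptor for degradation, had 63.6, 64.2, 72.6, 65.4, 61.3 and 75.2 CPM in Tfh5_4e4 libraries and 53.3, 45.0, 40.1, 31.6 and 28.1 CPM in Tfh2_2e4 libraries, again without overlap (log2 fold change 0.76, SE 0.15, edgeR adjusted p = 0.00035). Cdkn1a, the cell-cycle inhibitor p21 that SMADs and p53 both induce, had 222 ± 23.9 CPM in Tfh5_4e4 and 169 ± 49.7 CPM in Tfh2_2e4 (SD, n = 6 and 5). It passed at 0.40 (edgeR adjusted p = 0.036), but not without Tfh2_2e4 replicate 1 (0.25, adjusted p = 0.22), Tfh2_2e4 replicate 4 (0.29, adjusted p = 0.16) or any 1 of Tfh5_4e4 replicates 3, 4 and 5. Cdkn1a rose along the Tfh2 numbers, with means of 84.8, 169, 330 and 461 CPM at 1e4, 2e4, 4e4 and 6e4. Its Tfh5_4e4 mean lay between those at 2e4 and 4e4.

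The 3 SMAD-list genes that fell were Id1, Id2 and Id3, inhibitors of basic helix-loop-helix factors that BMP signals induce through SMAD1 and SMAD5. Id2 had 416, 399, 424, 437, 333 and 389 CPM in Tfh5_4e4 libraries and 562, 598, 548, 611 and 423 CPM in Tfh2_2e4 libraries, where 2 Tfh5_4e4 values lay within the Tfh2_2e4 range (log2 fold change -0.46, SE 0.09, edgeR adjusted p = 0.00028). Id2 was also lower than at each other Tfh2 number, with log2 fold changes of -0.40, -0.77 and -0.79 against 1e4, 4e4 and 6e4. Id3 had 13.9, 17.7, 14.3, 13.3, 16.3 and 12.9 CPM in Tfh5_4e4 libraries and 25.2, 20.6, 25.3, 22.9 and 49.4 CPM in Tfh2_2e4 libraries, so its groups did not overlap with or without Tfh2_2e4 replicate 6 (-0.97, edgeR adjusted p = 0.0029, and -0.69, adjusted p = 0.046 without that replicate). Id1 was near the filter on low counts, at 0.280 to 0.954 CPM in Tfh5_4e4 and 1.24 to 2.27 CPM in Tfh2_2e4. Its call (log2 fold change -1.42, edgeR adjusted p = 0.049) was lost in 18 of 22 alternative settings.

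Other SMAD targets did not pass. Sox4, a transcription factor gene induced by TGF-beta, averaged 129 ± 18.7 CPM in Tfh5_4e4 and 124 ± 28.7 CPM in Tfh2_2e4 (log2 fold change 0.06, 95% interval -0.29 to 0.41), although it was 1.15 higher than in Tfh2_4e4 (edgeR adjusted p = 2.0e-05). Skil and Ski, nuclear repressors of SMAD complexes, had log2 fold changes of 0.23 (-0.03 to 0.49) and 0.08 (-0.12 to 0.29). Both passed as higher against Tfh2_4e4, at 0.52 and 0.34 (edgeR adjusted p = 0.01 and 0.034). Tgfbi, a secreted matrix protein, was at 2.59 to 7.01 CPM in Tfh5_4e4 and 4.54 to 12.5 CPM in Tfh2_2e4 and missed the threshold narrowly (log2 fold change -1.06, edgeR adjusted p = 0.0502), and 10 of 22 alternative settings called it. Of the same 22 genes, 3 were higher and 6 lower against Tfh2_1e4, 8 higher and 3 lower against Tfh2_4e4, and 9 higher and 2 lower against Tfh2_6e4. Over all genes tested, 16.3% were higher and 12.1% lower against Tfh2_1e4. The shares were 1.41% and 1.70% against Tfh2_4e4, and 5.09% and 5.51% against Tfh2_6e4.

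Of 24 receptor and SMAD factor genes 19 were tested and 3 rose, with a list median of 0.43 and a positive log2 fold change in 18. The median was 0.32 without Tfh2_2e4 replicate 6. In this list 8 were higher and 2 lower against Tfh2_1e4, 2 and 2 against Tfh2_4e4, and 4 and 4 against Tfh2_6e4. The list medians there were 0.31, 0.08 and -0.0005. Acvrl1 (the type I receptor ALK1) had 47.5, 47.2, 61.1, 61, 47.8 and 50.7 CPM in Tfh5_4e4 libraries and 15.9, 35.4, 28.7, 27.8 and 17.2 CPM in Tfh2_2e4 libraries, apart in every library (log2 fold change 1.08, SE 0.18, edgeR adjusted p = 4.5e-05). Lrrc32 (GARP, which docks latent TGF-beta on the cell surface) had 8.97, 9.22, 13.2, 8.23, 13.8 and 13.3 CPM in Tfh5_4e4 libraries and 1.10, 5.76, 4.50, 6.24 and 5.47 CPM in Tfh2_2e4 libraries (1.26, SE 0.26, edgeR adjusted p = 0.00071). Both had lower means in Tfh5_4e4 than in Tfh2_6e4 (log2 fold changes -0.86 and -1.82). Smad5, a BMP-pathway SMAD, rose by 0.53 (edgeR adjusted p = 0.0059). Smad3, the TGF-beta effector, averaged 75.8 ± 6.58 CPM in Tfh5_4e4 and 61.1 ± 7.89 CPM in Tfh2_2e4 and lay just outside the threshold (0.31, 95% interval 0.10 to 0.53, edgeR adjusted p = 0.051, passed in 7 of 22 alternative settings). Smad4 and the receptor genes Tgfbr1 and Tgfbr2 did not pass, with log2 fold changes of 0.26 (0.02 to 0.50), 0.19 (-0.16 to 0.54) and 0.25 (-0.05 to 0.55).

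RefSeq promoter windows (GRCm38.p6, 300 bases around each gene's start, most of them upstream, on the strand of the gene) of Plk1 and of Ccnb2, the cyclin that activates CDK1, are shown because both genes fell and both windows hold the CCAAT box (CCAAT) and the CHR (TTTGAA or TTCGAA), given in capitals on either strand. The first lies at chr7:122159185-122159484 (+ strand) and the second at chr9:70421505-70421804 (- strand).
Plk1: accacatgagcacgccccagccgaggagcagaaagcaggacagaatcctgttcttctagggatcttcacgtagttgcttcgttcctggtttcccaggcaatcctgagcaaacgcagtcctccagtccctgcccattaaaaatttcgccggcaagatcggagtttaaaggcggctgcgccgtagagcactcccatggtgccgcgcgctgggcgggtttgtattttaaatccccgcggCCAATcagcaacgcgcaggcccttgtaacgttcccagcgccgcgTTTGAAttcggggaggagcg
Ccnb2: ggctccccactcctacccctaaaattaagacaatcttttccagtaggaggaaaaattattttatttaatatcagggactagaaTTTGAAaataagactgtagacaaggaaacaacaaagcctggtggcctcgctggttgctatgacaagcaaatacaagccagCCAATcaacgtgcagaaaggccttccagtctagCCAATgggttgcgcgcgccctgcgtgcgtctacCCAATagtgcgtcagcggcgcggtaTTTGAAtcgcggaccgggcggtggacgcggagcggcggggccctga
Of 30 mitosis genes 26 had a window in the table, and 21 of these (80.8%) held a CHR, against 13.7% of the windows of all tested genes and 19.4% of all 27025 windows. CCAAT was in 20 of the 26 (76.9%), against 39.4% and 37.9%. A match describes letters only.

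All 30 mitosis genes were tested, all 30 had a negative log2 fold change, and 27 fell, with a median of -0.94. In 22 of the 30 every Tfh5_4e4 library lay below every Tfh2_2e4 library, and 26 fell without Tfh2_2e4 replicate 6. The summed level of the list was 1366 to 1563 CPM in Tfh5_4e4 libraries and 2590 to 2986 CPM in Tfh2_2e4 libraries, which did not overlap. Top2a, the topoisomerase that untangles chromosomes, had 353, 339.8, 392, 382, 379 and 405 CPM in Tfh5_4e4 libraries and 661, 728, 687, 784 and 734 CPM in Tfh2_2e4 libraries. Its log2 fold change was -0.94 with an SE of 0.09 (edgeR adjusted p = 1.1e-09). Mki67, the proliferation antigen Ki-67, had 90.3, 68.7, 102, 99.8, 108 and 118 CPM in Tfh5_4e4 libraries and 191, 229, 218, 223 and 210.1 CPM in Tfh2_2e4 libraries (log2 fold change -1.13, SE 0.14). Ccnb2 had 29.3, 25.3, 27.2, 24.1, 21.3 and 19.8 CPM in Tfh5_4e4 libraries and 55.8, 41.6, 50.2, 41.8 and 54.0 CPM in Tfh2_2e4 libraries (-0.99, SE 0.12). In each of these 3 genes the groups stood apart in every library.

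Birc5 (survivin, of the chromosomal passenger complex) fell most in the group among those named, by 1.38 (edgeR adjusted p = 8.1e-09), and the spindle factors Nusap1 and Tpx2 fell by 1.10 and 0.95. Cenpa, the centromeric histone, and Prc1, the midzone bundling protein, did not pass, at -0.17 (95% interval -0.53 to 0.20) and -0.23 (-0.41 to -0.04). Kif20a, a kinesin of cytokinesis, was the other member that did not pass (-1.02, -2.02 to -0.02). Against Tfh2_1e4, 29 of the 30 fell. Against Tfh2_4e4, 2 fell in edgeR and 5 passed in DESeq2, and the list median was -0.26. At an unadjusted p below 0.05 in edgeR there were 13 of the 30, beside 1654 of all 11357 genes tested. Against Tfh2_6e4, 0 passed in edgeR, DESeq2 or limma-voom (1 at an unadjusted p below 0.05 in each), with a median of 0.07.

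The window of Cdc6, the loader of the replicative helicase, at chr11:98907901-98908200 (+ strand) is shown because Cdc6 is the listed member that fell most, and its capitals mark an E2F site (TTTCCCGC or TTTGGCGC, on either strand).
Cdc6: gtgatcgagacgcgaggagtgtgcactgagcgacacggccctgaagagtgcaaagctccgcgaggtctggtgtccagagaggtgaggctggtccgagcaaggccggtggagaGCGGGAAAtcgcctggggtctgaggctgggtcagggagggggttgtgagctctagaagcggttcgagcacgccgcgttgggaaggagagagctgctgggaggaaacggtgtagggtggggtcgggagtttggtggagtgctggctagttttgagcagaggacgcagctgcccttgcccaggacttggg
This site was in 8 of 24 replication-gene windows (33.3%) and in 0 of 26 mitosis windows, against 3.38% of the windows of tested genes and 1.63% of all. The CHR was in 5 of the 24 (20.8%) and CCAAT in 15 (62.5%).

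Of 29 replication genes 28 were tested, all with a negative log2 fold change, and 24 fell (23 without Tfh2_2e4 replicate 6), with a median of -1.05. Cdc6 had 6.31, 6.25, 8.54, 9.76, 4.27 and 7.60 CPM in Tfh5_4e4 libraries and 29.1, 24.3, 25.4, 22.9 and 26.3 CPM in Tfh2_2e4 libraries. Its highest Tfh5_4e4 value was well below the lowest Tfh2_2e4 value (log2 fold change -1.84, SE 0.19, edgeR adjusted p = 2.0e-09). Lig1, which joins Okazaki fragments, had 91.8, 91.2, 96.5, 71.7, 78.9 and 88.8 CPM in Tfh5_4e4 libraries and 239.8, 282, 182, 221 and 258 CPM in Tfh2_2e4 libraries (-1.45, SE 0.13, edgeR adjusted p = 1.4e-10). Tk1, Cdc45, Mcm5, Uhrf1 and Rrm1 fell by 1.77, 1.54, 1.38, 1.13 and 1.09, each with no overlap between the groups. They encode thymidine kinase, 2 parts of the replicative helicase, a reader of hemimethylated DNA and a subunit of ribonucleotide reductase. Mcm6, a further helicase subunit, did not pass (193 ± 19.4 CPM in Tfh5_4e4 and 205 ± 30.9 CPM in Tfh2_2e4, log2 fold change -0.09, 95% interval -0.32 to 0.15). Gins1, Gins2 and Rfc4 also did not pass.

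Against Tfh2_4e4, 7 replication genes were lower in Tfh5_4e4 and 1 was higher. Lig1 was among the lower ones (-0.72, edgeR adjusted p = 0.00025), as was Cdc6 (-0.86, 0.0038). Against Tfh2_6e4, 3 were higher and 1 lower, and the median was 0.15. Among 19 G1 cyclin, CDK and E2F genes, 7 fell and 1 rose (median -0.20). The G1/S cyclins Ccne1 and Ccne2 fell by 0.75 and 1.08, and the transcription factors E2f1 and E2f7 by 0.77 and 1.22. The single rise was Cdkn1b, the inhibitor p27, and without Tfh2_2e4 replicate 6 that rise did not pass.

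**Figure D2:**
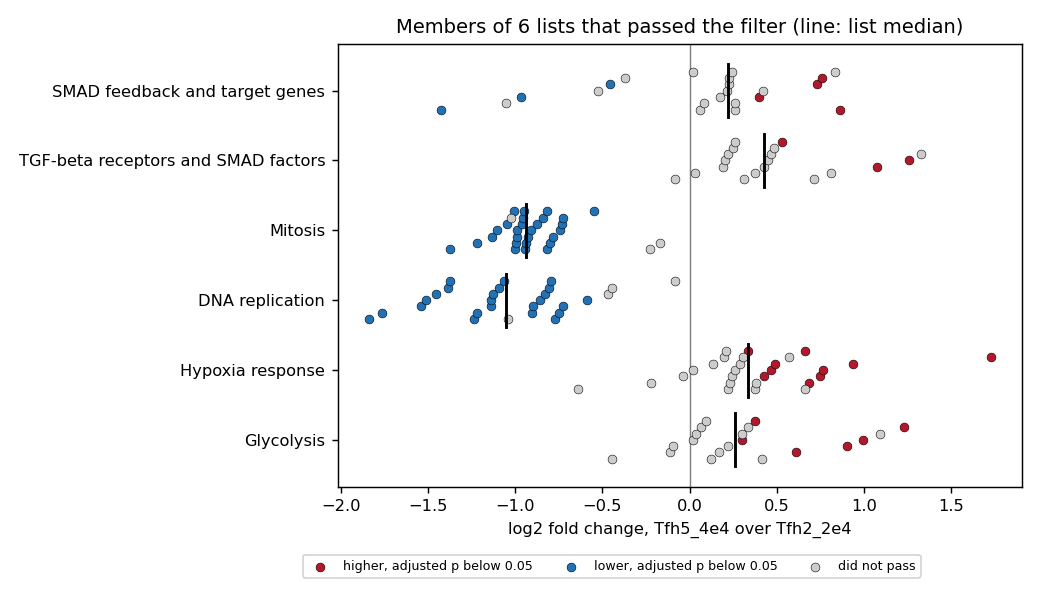
Log2 fold change of Tfh5_4e4 over Tfh2_2e4 for the tested members of 6 lists (1 point per gene, coloured by edgeR call; the black line is the list median). All mitosis and replication points lie left of 0 (medians -0.94 and -1.05), most hypoxia and glycolysis points right of it (0.33 and 0.26), and the SMAD list lies on both sides.

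The windows of P4ha1, a collagen prolyl hydroxylase subunit, at chr10:59323046-59323345 (+ strand), and of Adm, the peptide adrenomedullin, at chr7:110627407-110627706 (+ strand), are shown because both rose, with the hypoxia element core (ACGTG or GCGTG, on either strand) in capitals.
P4ha1: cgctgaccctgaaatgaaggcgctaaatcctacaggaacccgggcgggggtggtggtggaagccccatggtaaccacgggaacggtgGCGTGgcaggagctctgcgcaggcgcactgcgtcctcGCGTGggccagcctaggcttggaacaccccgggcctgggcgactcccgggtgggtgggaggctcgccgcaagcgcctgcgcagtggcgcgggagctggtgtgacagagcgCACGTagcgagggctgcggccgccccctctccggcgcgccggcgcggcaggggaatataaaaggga
Adm: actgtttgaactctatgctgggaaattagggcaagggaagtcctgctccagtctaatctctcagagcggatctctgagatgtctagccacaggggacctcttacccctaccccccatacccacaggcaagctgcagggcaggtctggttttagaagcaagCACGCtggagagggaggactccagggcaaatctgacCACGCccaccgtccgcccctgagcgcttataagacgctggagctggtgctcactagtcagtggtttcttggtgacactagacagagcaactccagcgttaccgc
The core was in 20 of 23 hypoxia-list windows (87.0%) and 14 of 19 glycolysis windows (73.7%), against 64.8% of the windows of tested genes and 43.8% of all, so it is frequent in any gene's window. On CACGTG the search finds the core on both strands at overlapping positions.

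Of 29 hypoxia genes 27 were tested, 10 passed and all 10 were higher (9 without Tfh2_2e4 replicate 6), with a list median of 0.33. The summed level was 3386 to 3962 CPM in Tfh5_4e4 libraries and 2426 to 3403 CPM in Tfh2_2e4 libraries, so the highest Tfh2_2e4 library just exceeded the lowest Tfh5_4e4 library. P4ha1 had 71.5, 79.3, 89.2, 95.1, 82.7 and 71.1 CPM in Tfh5_4e4 libraries and 46.1, 55.1, 55.8, 54.5 and 46.2 CPM in Tfh2_2e4 libraries (log2 fold change 0.66, SE 0.12, edgeR adjusted p = 8.3e-05). Adm had 7.85, 4.13, 5.37, 5.05, 7.12 and 4.07 CPM in Tfh5_4e4 libraries and 0.687, 1.15, 0.703, 3.97 and 2.13 CPM in Tfh2_2e4 libraries (1.73, SE 0.40, edgeR adjusted p = 0.0023). Both genes stood apart, as did P4ha2 (0.94, edgeR adjusted p = 3.8e-05) and Vegfa, the vascular growth factor (0.69, 0.0055). Egln3, the oxygen sensor PHD3 that HIF-1 induces, had 354, 336, 332, 347, 298 and 329.8 CPM in Tfh5_4e4 libraries and 206, 259.5, 236, 295 and 242 CPM in Tfh2_2e4 libraries (0.43, SE 0.09, edgeR adjusted p = 0.0011). Ndrg1, a stress-induced gene, and Bnip3l, a mitophagy receptor, rose by 0.75 and 0.49.

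Along the Tfh2 numbers Ndrg1 averaged 11.4 ± 3.26 CPM at 1e4, 66.7 ± 19.0 CPM at 2e4, 179 ± 25.1 CPM at 4e4 and 241 ± 24.1 CPM at 6e4. Its Tfh5_4e4 mean of 111 ± 14.1 CPM lay between those at 2e4 and 4e4. Hif1a itself, the oxygen-regulated subunit, had 311, 329.5, 306, 442, 421 and 379 CPM in Tfh5_4e4 libraries and 251, 296, 334, 411 and 285 CPM in Tfh2_2e4 libraries. In Tfh5_4e4, replicates 1 to 3 lay below replicates 4 to 6, and the same split was seen in Tfh2_1e4, Tfh2_4e4 and Tfh2_6e4 but not in Tfh2_2e4. Hif1a did not pass (0.21, 95% interval -0.05 to 0.47), but passed with these ranges of replicate numbers as a factor (0.24, adjusted p = 0.03) and with the replicate block (0.26, adjusted p = 0.011). Egln1, the sensor PHD2, did not pass either (0.20, -0.05 to 0.45). Against Tfh2_1e4, 22 of the 27 passed, all higher. The direction turned at the upper numbers: 6 passed against Tfh2_4e4 and 16 against Tfh2_6e4, all lower in Tfh5_4e4.

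All 20 glycolysis genes were tested, and 6 passed, all higher, with a median of 0.26 (5 without Tfh2_2e4 replicate 6). Besides Slc2a3 these were Aldoc, Gpi1, Pfkm, Aldoa and Pkm, which encode enzymes of the pathway from glucose phosphate to pyruvate. Gpi1 had 598, 609, 553, 574, 512 and 538 CPM in Tfh5_4e4 libraries and 344, 412, 366, 436 and 288 CPM in Tfh2_2e4 libraries, without overlap (log2 fold change 0.61, SE 0.10, edgeR adjusted p = 9.4e-06). Aldoc rose by 0.90 and Pfkm by 1.0, also without overlap. Aldoa (0.38, edgeR adjusted p = 0.0074) lost its call without Tfh2_2e4 replicate 4 (0.31, adjusted p = 0.053). Pkm (0.30, 0.04) lost it in 12 of 22 alternative settings, with an adjusted p of up to 0.2 (without Tfh2_2e4 replicate 1). Ldha, the lactate dehydrogenase gene, did not pass (-0.09, 95% interval -0.34 to 0.15). Against Tfh2_1e4, 16 of 20 passed, all higher, and against Tfh2_4e4 and Tfh2_6e4, 7 and 14 passed, all lower.

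**Figure D3:**
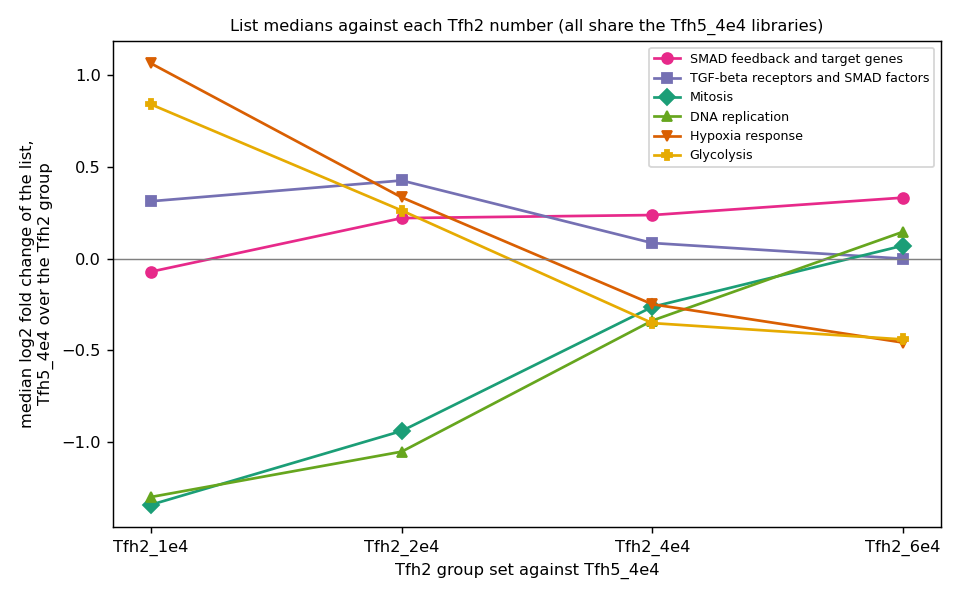
Median log2 fold change of Tfh5_4e4 over each Tfh2 group (x axis, number low to high) for 6 gene lists. Hypoxia and glycolysis medians cross 0 between 2e4 and 4e4 (0.33 and 0.26, then -0.25 and -0.35), while mitosis and replication medians cross 0 between 4e4 and 6e4 (-0.26 and -0.34, then 0.07 and 0.15).

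Tfh5_4e4 was placed on the line of Tfh2 numbers with 1140 genes chosen on the 23 Tfh2 libraries alone, 682 that rose and 458 that fell with the number. Each gene's Tfh5_4e4 mean was read off between the Tfh2 means as a label number. The median over genes was 32843 (quartiles 25954 and 42645), and the 6 Tfh5_4e4 libraries taken singly gave medians of 31614 to 35499. Of the genes, 13.4% fell under 2e4, 56.6% between 2e4 and 4e4, and 30.0% above 4e4. Among the rising genes the median place was 31659, with 20.1% above 4e4. Among the falling genes it was 37017, with 44.8% above 4e4. The gene groups took different places: all 16 hypoxia genes (median 29789) and all 9 glycolysis genes (28364) lay between 2e4 and 4e4. These genes all rose with the number, whereas the mitosis and replication genes placed all fell with it. Of 22 mitosis genes 21 lay above 4e4 (median 54460), 6 of them beyond the 6e4 mean, and of 19 replication genes 17 did (51867), 4 of them beyond it. By single Tfh5_4e4 libraries the mitosis median ran from 41701 to 60000, the clipped end, and the replication median from 48981 to 60000. Pmepa1 was placed at 15481 and Sox4 at 18930. These places are descriptions with no test, and the cell-cycle and hypoxia genes of the Tfh2 line change with the same 4 numbers, so they are not independent of each other.

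**Figure D4:**
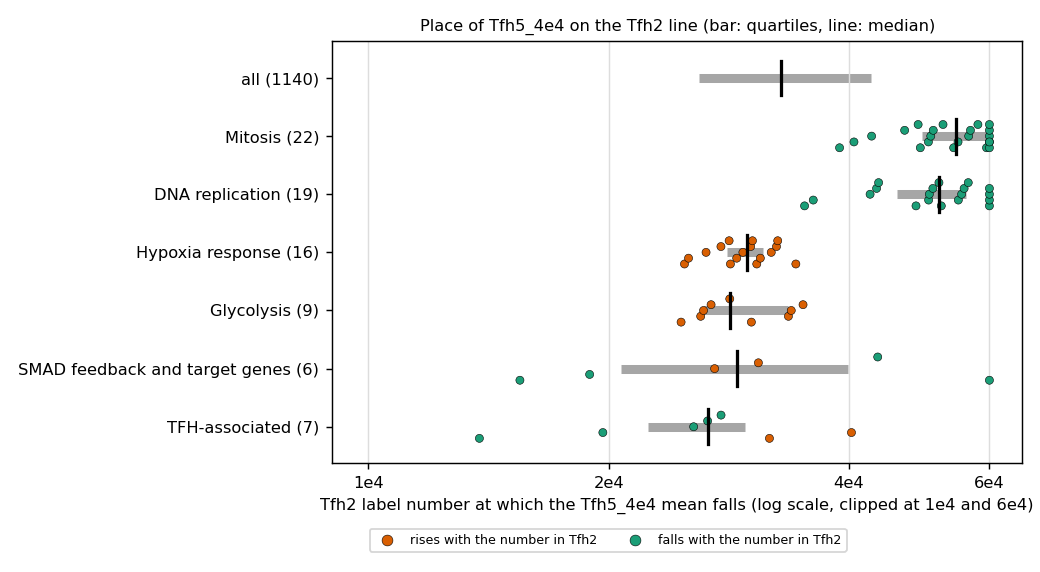
Label number on the Tfh2 line at which the Tfh5_4e4 mean of each gene falls (log scale, clipped at 1e4 and 6e4), for all 1140 genes (quartile bar and median line) and by list (points are genes). Hypoxia and glycolysis points lie between 2e4 and 4e4, and mitosis and replication points lie mostly above 4e4, with medians of 54460 and 51867.

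Few genes lay outside the Tfh2 line altogether. In 7 genes (0.0616%) every Tfh5_4e4 library was above all 23 Tfh2 libraries, namely Atp6v1d, Prkcb, Itpr3, Atxn2, Prkd2, Kansl3 and Glcci1. In 1 gene, Ly6e (0.00881%), every library was below. Itpr3, an IP3-gated calcium channel, had 86.7, 96.1, 105, 96.3, 87.9 and 91.2 CPM in Tfh5_4e4 libraries and 44.0, 48.7, 56.7, 52.0 and 35.5 CPM in Tfh2_2e4 libraries, and its log2 fold changes were 0.36, 0.99, 0.52 and 0.43 against 1e4, 2e4, 4e4 and 6e4. Atp6v1d, a subunit of the lysosomal proton pump, had 276, 294, 265, 290.3, 272 and 292 CPM in Tfh5_4e4 libraries and 185, 197, 224, 206 and 193 CPM in Tfh2_2e4 libraries (0.49, edgeR adjusted p = 0.00011). Glcci1 rose by 0.59 and Prkcb, a protein kinase C acting in antigen receptor signals, by 0.50. Prkd2 (0.39, edgeR adjusted p = 0.028) lost its call in 9 of 22 alternative settings, among them without Tfh2_2e4 replicate 1, 2 or 6 and without Tfh5_4e4 replicate 1 or 2 (adjusted p of up to 0.12), and Kansl3 did not pass (0.35, 95% interval 0.08 to 0.63). Ly6e, a GPI-anchored surface protein, had 167, 173, 157, 152, 166 and 150.5 CPM in Tfh5_4e4 libraries and 179, 229, 182, 206 and 206 CPM in Tfh2_2e4 libraries (-0.31, edgeR adjusted p = 0.01, and -0.26, adjusted p = 0.053 without Tfh2_2e4 replicate 2).

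Of 16 T helper lineage genes 11 were tested, 5 fell and 1 rose (4 and 1 without Tfh2_2e4 replicate 6). Il17a, the TH17 cytokine, had 51.6, 72.9, 69.8, 51.0, 95.2 and 63.7 CPM in Tfh5_4e4 libraries and 152, 92.2, 146, 84.9 and 162 CPM in Tfh2_2e4 libraries. The groups overlapped through 1 Tfh5_4e4 library, and Il17a fell by 0.93 (SE 0.21, edgeR adjusted p = 0.0025). Il21, the helper cytokine, had 72.3, 78.3, 69.3, 69.9, 80.0 and 72.1 CPM in Tfh5_4e4 libraries and 89.4, 92.3, 113, 96.8 and 119 CPM in Tfh2_2e4 libraries, apart in every library (-0.47, SE 0.12, edgeR adjusted p = 0.0054). Il2ra, the high-affinity chain of the IL-2 receptor, rose by 0.39 (1805 ± 76.4 CPM in Tfh5_4e4 and 1375 ± 226 CPM in Tfh2_2e4, edgeR adjusted p = 0.003).

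The other 3 lineage genes that passed depended on single libraries. Il17f fell by 0.39 (edgeR adjusted p = 0.042) and did not pass without Tfh2_2e4 replicate 2 (-0.32, adjusted p = 0.14), nor without any 1 of 5 other libraries. Icos, a costimulatory receptor, and Pdcd1, the inhibitory receptor PD-1, fell by 0.52 and 0.52 (edgeR adjusted p = 0.027 and 0.039). Icos did not pass without Tfh2_2e4 replicate 6 (-0.42, adjusted p = 0.11), nor without any 1 of 4 other libraries. Pdcd1 did not pass without Tfh2_2e4 replicate 1 (-0.41, adjusted p = 0.17), nor without any 1 of 4 others.

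Maf, which encodes the c-Maf factor of the series title, had 787, 774, 782, 889.9, 926 and 908 CPM in Tfh5_4e4 libraries and 798, 655, 808, 693 and 627 CPM in Tfh2_2e4 libraries. The groups overlapped, and in Tfh5_4e4 replicates 1 to 3 lay below replicates 4 to 6. The log2 fold change of 0.24 (95% interval 0.02 to 0.45, edgeR adjusted p = 0.16) did not pass, but passed with the ranges of replicate numbers as a factor (0.25, adjusted p = 0.041) and with the replicate block (0.27, adjusted p = 0.019). Cxcr5, the follicle-homing receptor gene, also did not pass, at 0.34 (-0.20 to 0.88). The same holds for Tbx21 at -1.77 (-3.32 to -0.22) and Gata3, the TH2 factor gene, at 0.14 (-0.47 to 0.75). Bcl6 (the TFH repressor), Foxp3 (the regulatory T cell factor), Prdm1 (the Bcl6 antagonist) and Ifng (the TH1 cytokine) stayed under the filter at up to 1.41 CPM in these 11 libraries, and Il4, the TH2 cytokine, had 0 counts in both groups.

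Of 15 TH17-associated genes tested 3 rose and 4 fell (3 and 3 without Tfh2_2e4 replicate 6). Ahr, the aryl hydrocarbon receptor, and Irf4 rose by 0.55 and 0.37 without overlap, and Ccr6, the TH17 chemokine receptor, fell by 0.49 (edgeR adjusted p = 0.012, and -0.41, adjusted p = 0.057 without Tfh2_2e4 replicate 2). Ccl20 fell by 1.66 (edgeR adjusted p = 0.04), but did not pass without Tfh2_2e4 replicate 6 (-1.06, adjusted p = 0.26), and its call was lost in 11 of 22 alternative settings.

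Of 21 TFH-associated genes tested 4 rose and 6 fell (3 and 4 without Tfh2_2e4 replicate 6). Cd40lg, which helps B cells, had 12.5, 9.97, 6.71, 10.8, 10.1 and 9.73 CPM in Tfh5_4e4 libraries and 18.8, 18.4, 17.2, 30.3 and 22.1 CPM in Tfh2_2e4 libraries (log2 fold change -1.10, SE 0.18, edgeR adjusted p = 1.9e-05), which did not overlap. Matk, a kinase that restrains Src-family kinases, and Izumo1r (folate receptor 4) rose by 1.42 and 0.80. Angptl2 fell by 0.56 (edgeR adjusted p = 0.0069, and -0.43, adjusted p = 0.059 without Tfh2_2e4 replicate 1). Cd200 fell by 0.73, but did not pass without Tfh2_2e4 replicate 6 (-0.42, adjusted p = 0.25) or Tfh5_4e4 replicate 5 (-0.68, adjusted p = 0.053). Of 11 TH1 and TH2 genes tested 1 passed in each direction, and the fall was Gzmb (-3.61, edgeR adjusted p = 0.0063), which rested on Tfh2_2e4 replicate 6 (-0.16, adjusted p = 0.96 without it).

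Of 13 regulatory T cell genes tested 6 passed, all higher (4 without Tfh2_2e4 replicate 6), with a median of 0.39. This list had 1 higher and 3 lower against Tfh2_4e4, and 2 higher and 4 lower against Tfh2_6e4. Il10, the anti-inflammatory cytokine, had 39.9, 52.5, 42.8, 52.1, 36.0 and 35.9 CPM in Tfh5_4e4 libraries and 15.9, 16.3, 21.7, 23.3 and 16.7 CPM in Tfh2_2e4 libraries. The groups stood wide apart (log2 fold change 1.21, SE 0.18, edgeR adjusted p = 4.8e-06), and against Tfh2_4e4 the value was -0.03 (95% interval -0.36 to 0.30). Tnfrsf18 (GITR) rose by 0.38 and lost its call without Tfh2_2e4 replicate 1 (0.27, adjusted p = 0.14) or any 1 of 3 other libraries. Ikzf2 (Helios) rose by 0.88 and lost its call without Tfh2_2e4 replicate 6 (0.76, adjusted p = 0.082) or any 1 of 3 others. Of 16 costimulatory and inhibitory receptor genes tested 2 rose and 3 fell (2 and 1 without Tfh2_2e4 replicate 6). Tnfrsf9 (4-1BB) rose by 0.66, but did not pass without Tfh2_2e4 replicate 1 (0.45, adjusted p = 0.083).

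All 17 genes of the naive and quiescent state had a positive log2 fold change (median 0.28), and 3 passed. In this list 9 were higher and 0 lower against Tfh2_1e4, 1 and 1 against Tfh2_4e4, and 3 and 3 against Tfh2_6e4. The list medians there were 0.51, 0.20 and 0.14. Ccr7, the lymph node homing receptor, averaged 238 ± 26.3 CPM in Tfh5_4e4 (SD, n = 6) and 159.6 ± 25.7 CPM in Tfh2_2e4 (n = 5), and rose by 0.58 (SE 0.13, edgeR adjusted p = 0.0012). Foxo1, a transcription factor of the quiescent state, had 363, 405, 392, 367, 361 and 361 CPM in Tfh5_4e4 libraries and 249, 264, 273, 285 and 225 CPM in Tfh2_2e4 libraries, and rose by 0.53 (SE 0.09, edgeR adjusted p = 1.9e-05). Both genes were apart in every library. Of 14 STAT3 and STAT5 response genes 5 passed, all higher (4 without Tfh2_2e4 replicate 6), among them Pim1 (0.42, edgeR adjusted p = 0.0023). This list had 0 calls against Tfh2_4e4, and 1 higher and 4 lower against Tfh2_6e4. Stat3 (0.43, 0.012) did not pass without Tfh2_2e4 replicate 1 (0.34, adjusted p = 0.078) or replicate 2. Of 16 early receptor-response genes tested 2 rose, Fosl2 (0.64) and Irf4, and 1 fell, Egr1 (-0.47, edgeR adjusted p = 0.011, and -0.38, adjusted p = 0.065 without Tfh2_2e4 replicate 6). Egr1 was higher than in Tfh2_4e4 (0.87, edgeR adjusted p = 1.8e-05).

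Of 18 cholesterol and fatty acid synthesis genes 7 passed, all lower, with a median of -0.37. The list had 0 calls against Tfh2_4e4 (median 0.02), and 2 higher and 0 lower against Tfh2_6e4. Hmgcs1, an early enzyme of cholesterol synthesis, had 116, 119.9, 128, 132, 122 and 147 CPM in Tfh5_4e4 libraries and 175, 194, 199, 223 and 245 CPM in Tfh2_2e4 libraries (-0.70, SE 0.11, edgeR adjusted p = 8.2e-06). Cyp51, a later demethylase, fell by 0.49. Both genes were apart in every library. Of 19 ATF4 and amino acid response genes tested 6 fell and 1 rose (median -0.21), whereas 0 were higher and 1 was lower against Tfh2_4e4. Mthfd2, the mitochondrial folate enzyme, had 49.3, 41.6, 54.3, 59.8, 50.8 and 58.4 CPM in Tfh5_4e4 libraries and 98.6, 102, 94.5, 107 and 126 CPM in Tfh2_2e4 libraries (-1.02, SE 0.14, edgeR adjusted p = 1.3e-06). The serine synthesis enzymes Phgdh and Psat1 fell by 1.32 and 0.76. Among 13 interferon-stimulated genes tested 3 rose and 1 fell (3 rose and 0 fell in edgeR without Tfh2_2e4 replicate 6). Among 12 p53 response genes 2 rose (1 without that replicate), beside 5.79% higher and 5.19% lower over all genes tested.

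The 10 largest rises by the rule for named genes were Enpp2, Fam183b, Itga7, Adm, Ly6c1, Dntt, Bnip5, Peg10, Lbp and Reep1. The minimum level of that rule was a mean over all 34 libraries, and Adm and Fam183b averaged below it in both groups compared. Ly6c1, a GPI-anchored surface marker, had 104, 99.8, 69.4, 110.0, 108 and 84.9 CPM in Tfh5_4e4 libraries and 18.8, 29.1, 29.2, 41.2 and 30.2 CPM in Tfh2_2e4 libraries (log2 fold change 1.70, SE 0.16, edgeR adjusted p = 2.2e-10). Dntt, the terminal deoxynucleotidyl transferase of lymphocyte precursors, had 37.6, 49.4, 40.5, 51.7, 33.5 and 28.8 CPM in Tfh5_4e4 libraries and 6.74, 15.6, 16.2, 18.3 and 7.41 CPM in Tfh2_2e4 libraries (1.67, SE 0.20, edgeR adjusted p = 7.2e-08). Enpp2 (autotaxin), Itga7 (an integrin chain), Fam183b and the imprinted gene Peg10 rose by 1.86, 1.79, 1.83 and 1.55. In all of these genes the groups did not overlap. Against Tfh2_4e4 the 4 genes had log2 fold changes of -0.73, -0.56, -1.50 and 0.01, of which Fam183b passed, as lower. Bnip5, Lbp and Reep1 rose by 1.64, 1.54 and 1.44.

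The largest falls included Nkg7, Crabp2, Cdc6, Tk1, Clspn, Fam111a, Chek1, Cdc45 and Spp1, and 6 of these 9 act in DNA replication or its checkpoint. Nkg7 and Spp1 averaged below the minimum level of the rule in both Tfh5_4e4 and Tfh2_2e4. They met it only through other groups, TfhA_4e4 among them. Clspn, which links stalled forks to the kinase Chek1, had 15.7, 17.7, 14.5, 12.3, 17.1 and 16.3 CPM in Tfh5_4e4 libraries and 58.7, 48.8, 39.1, 57.3 and 52.6 CPM in Tfh2_2e4 libraries (-1.72, SE 0.15, edgeR adjusted p = 1.7e-11). Fam111a (a protease at replication forks) and Chek1 fell by 1.70 and 1.59. Crabp2, a carrier of retinoic acid, had 3.78, 4.13, 6.22, 2.12, 1.58 and 3.36 CPM in Tfh5_4e4 libraries and 11.8, 12.8, 16.2, 12.9 and 13.8 CPM in Tfh2_2e4 libraries (-1.92, SE 0.27, edgeR adjusted p = 1.7e-06). Spp1 (osteopontin) fell by 1.52 without overlap. Nkg7, a cytotoxic granule protein, had 0.280, 1.38, 0.976, 0.118, 2.06 and 2.12 CPM in Tfh5_4e4 libraries and 4.67, 5.76, 1.55, 1.51 and 11.3 CPM in Tfh2_2e4 libraries, highest in Tfh2_2e4 replicate 6. It fell by 2.23 (edgeR adjusted p = 0.025) and did not pass without Tfh2_2e4 replicate 6 (-1.66, adjusted p = 0.17), nor without Tfh5_4e4 replicate 1 or 4.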

How the data were processed

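The authors deposited raw counts per gene identifier, 1 table per library, from 3-prime libraries made with a Lexogen kit per the labels. Tools listed in the submitters' processing notes are featureCounts 1.6.4 and STAR 2.7.2b, beside the build mm10, with no step given. Strand setting and handling of multiply mapping reads are not given in the sources used here, so counts of overlapping, antisense and near-identical genes (for example glycolytic enzymes with pseudogenes) are uncertain. Of 27179 identifiers 25275 matched a symbol in RefSeq GRCm38.p6; the 2 largest identifiers without one stayed in library totals. A joined table of the same values was not used.

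A single fit over all 34 libraries (6 groups) was made on the counts in edgeR 4.0.16 (R 4.3.3; limma 3.58.1 and DESeq2 1.42.0 for alternatives) with TMM scaling, filterByExpr by group and the quasi-likelihood test, two-sided. Benjamini-Hochberg adjustment ran over all genes tested, with a threshold of 0.05, and intervals are at 95%. No pair of libraries within a group agreed within sampling noise (chi-square per degree of freedom 6.35 or more). Same-numbered libraries of the 2 groups correlated at -0.0567 to 0.127 around group means, so samples were not paired.

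Placement used genes whose expression followed log2 of the Tfh2 number (adjusted p below 0.05, slope of at least 0.5 per doubling, group means in 1 direction), interpolated between group means of log2 CPM with a prior count of 1. Named genes are the 4 markers, 16 lineage genes, the 10 largest rises and falls, list members and genes outside the Tfh2 range. The rises and falls had a mean log2 CPM of at least 3 over all 34 libraries, TfhA_4e4 included. Each library lay on its side of the other group's mean, and predicted genes were passed over. List members were up to 6 passing genes per list by lowest p. For 6 lists up to 4 abundant members that did not pass were added. Not every such gene is named, and a few are not reported here; Cdkn1b, Gins1, Gins2, Rfc4 and cell markers are named as list members. Promoters were chosen from genes that moved and hold the letters. Members and lists were chosen with earlier results of these data known. Alternatives were another scaling, no filter, DESeq2, limma-voom, a replicate block, a factor for number ranges, the 2 largest identifiers left out, the mitochondrial rRNA share as a covariate, the 2 groups alone, a test against a fold of 1.2, each library left out and a pair of libraries left out. The design was tested on simulated data.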

Additional observations from a re-analysis of the deposited data

Results flagged for a closer look

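Among the named genes, total counts and the mitochondrial rRNA share, 242 sets of values (1 of these items in 1 of the 2 groups) were looked at. A library far from the others was sought by Dixon's ratio of gap to range, and 20 sets were marked. Chance marks about 1 in 20 such sets.

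In Tfh5_4e4 there were 8, spread over the libraries. Replicate 1 stood apart in Tgfbi (7.01 CPM, against 2.59 to 4.15 CPM). Replicate 2 stood apart in Izumo1r (46.5 CPM, against 32.7 to 37.2 CPM) and Prkd2 (56.7 CPM, against 43.2 to 47.0 CPM). Replicate 3 stood apart in Psat1 (55.4 CPM, against 34.1 to 41.6 CPM). Replicate 4 stood apart in Rrm1 (50.0 CPM, against 62.8 to 67.6 CPM) and Fam111a (22.9 CPM, against 11.5 to 15.3 CPM). Replicate 5 stood apart in Vegfa (46.0 CPM, against 34.8 to 37.0 CPM). Replicate 6 stood apart in Ifng (0.530 CPM, against 0 CPM in each).

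Tfh2_2e4 replicate 6 held 5 of the marks, in Id3 (49.4 CPM, against 20.6 to 25.3 CPM), Tbx21 (4.45 CPM, against 0.189 to 0.844 CPM), Foxp3 (0.556 CPM, against 0 to 0.137 CPM), Cd200 (33.8 CPM, against 12.5 to 18.2 CPM) and Gzmb (15.8 CPM, against 0 to 0.769 CPM). In the report, the calls of Gzmb and Cd200 are given without this library, and the Id3 call stayed past the threshold without it.

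The other marks in Tfh2_2e4 were replicate 1 in Angptl2 (99.5 CPM, against 60.5 to 68.9 CPM), replicate 2 in Ifng (0.640 CPM, against 0 CPM in each), Il24 (7.43 CPM, against 1.10 to 2.87 CPM) and Atxn2 (59.8 CPM, against 46.9 to 50.6 CPM), replicate 4 in Ikzf2 (13.8 CPM, against 5.11 to 7.56 CPM) and replicate 5 in Itga7 (9.83 CPM, against 1.67 to 3.80 CPM) and Prdm1 (0.567 CPM, against 0.128 to 0.185 CPM). Foxp3, Prdm1, Tbx21 and Ifng rest on few counts per library. What sets these libraries apart was not tested.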

How the results depend on the processing

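The 1247 genes called against Tfh2_2e4 became 513 (231 higher and 282 lower) when tested against a fold of 1.2. Leaving out 1 library at a time gave 931 to 1156 calls, 412 to 589 higher and 511 to 605 lower, with the fewest without Tfh2_2e4 replicate 1. With the replicate block the count was 1679 against Tfh2_2e4, and against Tfh2_4e4 it was 584 in place of 353. The numbers are not shown to pair samples, since not every library correlated best with its own number. With replicates 1 to 3 against 4 to 6 as a factor the counts were 1574 against Tfh2_2e4 and 519 against Tfh2_4e4. Pmepa1, Maf and Hif1a passed in both of these fits (Pmepa1 with the block 0.23, adjusted p = 0.026). The median place on the Tfh2 line was 34319 without the minimum slope and 29067 with a minimum slope of 1, in place of 32843. Genes below all Tfh2 libraries numbered 2 without Tfh2_2e4 replicate 6 and Tfh2_4e4 replicate 3, a setting chosen after seeing the data. Of 2528 values of 115 named genes under 22 alternatives, 2364 kept direction and side of the threshold, 131 in 33 genes lost the call and 29 in 8 genes gained it. Signs turned in 2 uncalled genes when 1 library was left out. Sox4 ran from -0.017 (without Tfh2_2e4 replicate 5; -0.013 and -0.014 without Tfh2_2e4 replicate 2 and Tfh5_4e4 replicate 3) to 0.18 and Gata3 from -0.079 (without Tfh5_4e4 replicate 1) to 0.31. The cause of these changes was not tested. Intervals of genes under about 5 CPM are wide, and differences there were often not detectable at this depth.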
